A study of Mus musculus with 12 samples.

Results

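The genes described here are 32 genes of autophagy and mitophagy, given as a list of symbols by what their proteins do. No measured value enters that rule, but the list was drawn up with earlier results of these data known. All 32 were found among the 17043 genes kept from the table of the HDAC3 knockout experiment and among the 17833 genes kept from the table of the NS-DADm experiment. Every one of the 32 passed the filter on low values in both experiments. FPKM are fragments of a gene scaled to its length and to the fragments of the library, so levels of different genes are compared here per length.

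Autophagy encloses cytoplasm in a double membrane, the autophagosome, and delivers it to the lysosome for breakdown. The ULK kinase complex starts the process, a lipid kinase complex around Beclin 1 marks the membrane, and a ubiquitin-like conjugation system then attaches proteins of the ATG8 family (LC3 and GABARAP) to it. Cargo receptors such as p62 hold ubiquitinated cargo against the attached ATG8 proteins, and mitophagy receptors do the same for mitochondria, in which heart muscle is unusually rich. A further pathway of mitophagy starts with the kinase PINK1.

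RNA of mouse heart was sequenced in 12 libraries, with 3 in each of 4 groups. KO hearts, whose genotype is given as HDAC3 KO, had WT hearts of their own, and NS-DADm hearts had a separate WT group. HDAC3 is a histone deacetylase that is active only when bound to the deacetylase activating domain of a nuclear corepressor such as NCOR1. The NS-DADm mice carry mutated deacetylase activating domains, and the series describes their HDAC3 as inactive, so the design sets loss of the protein against loss of its activity. The labels name no treatment for any group, and they state neither age, strain or sex nor the promoter or cell type in which Hdac3 was deleted. The libraries are called biological replicates without a named animal, so p-values measure only the spread between these libraries, and that spread could be technical.

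Hdac3 itself was at 27.83, 29.45 and 27.12 FPKM in WT and at 8.51, 7.31 and 7.88 FPKM in KO libraries, all of the KO values lying below all of the WT values. The Y-linked gene Ddx3y was at 0 in each WT library of the KO experiment and between 21.43 and 22.13 FPKM in the KO libraries, so sex and genotype cannot be told apart in that comparison. Markers of cell types are counted below as higher or lower by limma at an adjusted p under 0.05. Over all genes tested, 38.2% rose and 27.6% fell in KO by that test, and 1.26% rose in NS-DADm. All 8 macrophage markers listed rose in KO, with a summed level of 302.6 to 330.1 FPKM in WT and 1790.9 to 1831.9 FPKM in KO. In the NS-DADm experiment 4 of these 8 rose, with sums of 283.7 to 317.4 and 365.6 to 423.7 FPKM. The 7 cardiomyocyte markers were abundant in every group, and 4 of them fell and 1 rose in KO, where their sum went from between 52799.5 and 56580.0 to between 36866.5 and 37390.6 FPKM. The 4 erythroid markers all fell in KO, from sums of 6100.0 to 7090.2 to sums of 2054.7 to 2170.1 FPKM, and the 4 endothelial markers all fell, from 169.0 to 176.2 to 148.1 to 152.4 FPKM. Of 5 fibroblast markers 3 rose and 1 fell in KO, with sums of 551.7 to 578.0 in WT and 1226.1 to 1231.8 FPKM in KO. Of 6 atrial markers 4 rose and 1 fell in KO, with sums of 157.2 to 166.2 and 1949.6 to 2005.8 FPKM, most of it from Nppa, the natriuretic peptide gene, at 116.4 ± 3.90 and 1845.5 ± 32.03 FPKM. In the NS-DADm experiment the erythroid sums were 5047.1 to 5999.2 in WT and 2562.6 to 4994.1 FPKM in NS-DADm. Sums of the 4 adipocyte markers were 27.9 to 33.0 in WT and 30.3 to 93.3 FPKM in NS-DADm. The highest was that of NS-DADm replicate 3, where Ucp1 was at 23.62 FPKM. In every other library of that experiment Ucp1 was at 1.69 FPKM or less. Cidea made up most of the adipocyte sum in every WT library there, at 22.7 to 29.2 FPKM. Adipoq was at 0.51 to 8.02 FPKM in WT and at 0.74 to 25.4 FPKM in NS-DADm. Myl7, an atrial myosin light chain, was at 50.9, 9.77 and 795.5 FPKM in the WT and at 446.3, 84.3 and 804.5 FPKM in the NS-DADm libraries of that experiment, so these libraries held unequal amounts of atrial RNA in both groups. In whole heart, fewer cells of a type and less RNA per cell cannot be told apart. The part of these differences in the results below was not tested, except where a value is given.

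Promoters of 4 genes are shown because the results turn on them. Sqstm1 and Pink1 had the largest rise and fall of the 32 in KO, and Bnip3 was the one gene called in NS-DADm. Atg13 is one of several genes that rose in KO and hold a motif searched for. The sequences are the 250 bases before the start that the RefSeq promoter table uses (build GRCm38.p6, minus strand in each case, written 5′ to 3′). For Atg13 that start lies inside the annotated gene, so that 5 of the printed bases belong to it, and for the others none do. They lie at chr11:50210821-50211070 for Sqstm1, at chr4:138326297-138326546 for Pink1, at chr7:138909507-138909756 for Bnip3 and at chr2:91710593-91710842 for Atg13. Capitals mark a motif match.
Sqstm1: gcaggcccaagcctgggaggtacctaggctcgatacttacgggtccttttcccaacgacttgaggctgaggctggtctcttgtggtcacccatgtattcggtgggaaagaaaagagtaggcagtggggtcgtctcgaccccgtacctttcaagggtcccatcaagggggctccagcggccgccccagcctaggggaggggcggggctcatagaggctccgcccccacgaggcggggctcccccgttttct
Pink1: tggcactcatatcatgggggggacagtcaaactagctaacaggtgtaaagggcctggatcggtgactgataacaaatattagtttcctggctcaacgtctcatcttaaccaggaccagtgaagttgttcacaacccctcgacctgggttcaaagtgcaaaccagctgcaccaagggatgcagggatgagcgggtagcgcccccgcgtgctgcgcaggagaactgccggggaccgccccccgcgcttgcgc
Bnip3: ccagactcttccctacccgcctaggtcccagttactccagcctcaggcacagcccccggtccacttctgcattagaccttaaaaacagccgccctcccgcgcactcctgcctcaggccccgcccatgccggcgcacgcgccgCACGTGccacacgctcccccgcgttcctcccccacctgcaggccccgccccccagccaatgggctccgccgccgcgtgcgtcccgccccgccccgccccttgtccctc
Atg13: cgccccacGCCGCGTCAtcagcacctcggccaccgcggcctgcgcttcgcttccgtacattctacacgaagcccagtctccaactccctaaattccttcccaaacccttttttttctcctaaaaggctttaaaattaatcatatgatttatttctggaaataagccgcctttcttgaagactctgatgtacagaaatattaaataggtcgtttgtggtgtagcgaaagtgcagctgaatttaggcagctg
The motifs searched on both strands, over 250 bases before and 50 bases after the start, were CACGTG (the E-box core that TFEB and related factors bind), TGACNNNGC (the core of the antioxidant response element bound by NRF2), TGATGNAA (bound by ATF4 with a partner) and GTAAACA (a forkhead motif that FOXO factors bind). Of the 32 genes, 24 had a promoter in the RefSeq table. Genes are counted where any of their listed promoters holds the motif, while the percentages count promoters singly, so the units are unlike. CACGTG was present in 6 of the 24 (Atg14, Atg3, Atg5, Atg7, Bnip3 and Rubcn) and in 7.2% of all 32851 promoters. Of these 6 genes Rubcn, Atg3 and Atg5 rose in KO, where 38.2% of all genes tested rose. Atg14, Atg7 and Bnip3 did not pass the test there. TGACNNNGC was present in 4 of the 24 (Atg13, Map1lc3b, Tax1bp1 and Ulk2) and in 12.4% of all promoters. Of these 4 genes only Atg13 rose in KO, while Map1lc3b fell and Tax1bp1 and Ulk2 did not pass the test. A link between either motif and the changes was not tested. In the printed stretches the Bnip3 match begins 108 bases and the Atg13 match 242 bases before the start, and no motif overlaps another. TGATGNAA and GTAAACA, present in 4.0% and 3.6% of all promoters, were in none of the 24, which says only that these letters are not in this window. Sqstm1 and Pink1 held none of the 4 motifs in it.

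In WT hearts of the KO experiment the mean levels of the genes named here ran from percentile 52.9 (Atg14) to percentile 98.5 (Map1lc3a) of all genes in the table. Map1lc3a, one of the LC3 genes, was highest in both WT groups, at 417.9 ± 8.06 FPKM (SD, n = 3) in the KO experiment and 461.1 ± 18.8 FPKM in the other. It was followed in both by Pink1, Gabarap, Sqstm1 and Map1lc3b. In the KO experiment the ranges of Map1lc3a and Pink1 overlapped, so their order is not fixed by the data, while in the NS-DADm experiment they did not overlap. Of the genes named here the lowest were Atg7 and then Atg14, which was at 4.48 ± 0.276 and 4.38 ± 0.633 FPKM in the WT groups. Of the 31 pairs of neighbours in this order, 12 had overlapping ranges in the WT of the KO experiment and 17 in the WT of the NS-DADm experiment.

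**Figure D1:**
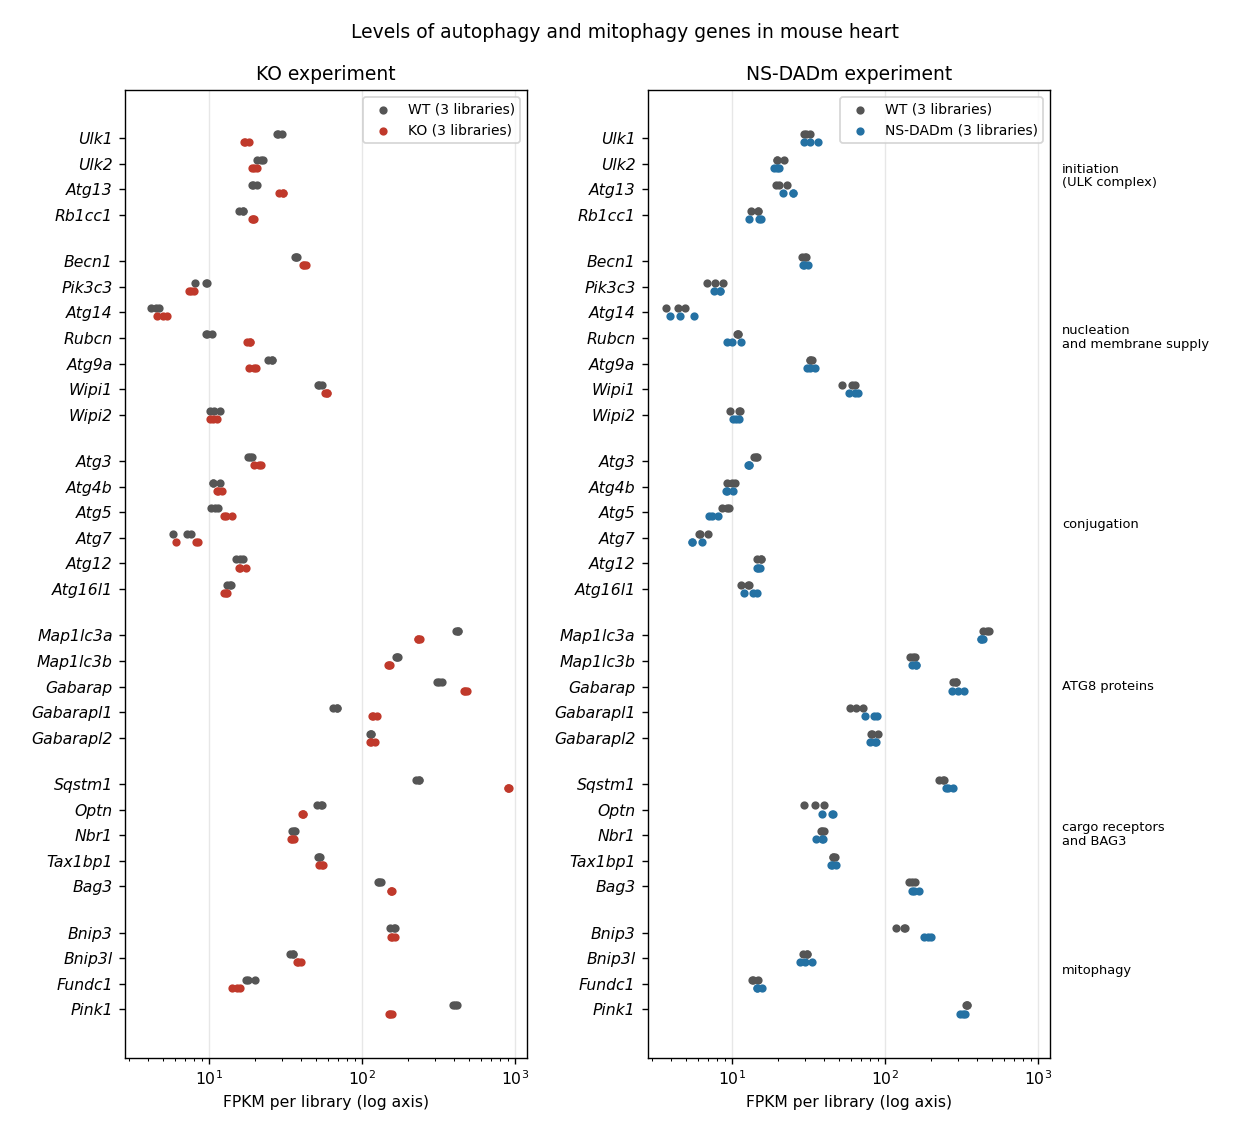
Level of 31 of the 32 genes in every library, in FPKM on a log axis, grouped by step, with WT in grey and the mutant in colour. Among the WT points those of Map1lc3a, Pink1, Gabarap and Sqstm1 lie furthest right and those of Atg14 furthest left. The KO points of Sqstm1 and Pink1 stand clear of their WT points, and in the NS-DADm panel most points of both groups lie together.

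In KO hearts 12 of the 32 genes rose and 8 fell, and 12 did not pass the test (limma on log2(FPKM + 1), adjusted p under 0.05 over all 11810 genes tested). This is 62.5% of the 32, where 65.8% of all genes tested were called, so the share of called genes among the 32 was no higher than in the table as a whole. The median log2 fold change of the 32 was 0.04, beside 0.06 over all genes, and the median of its size without the sign was 0.17, beside 0.28 over all genes. For 23 of the 32 the KO and WT values did not overlap, where 69.8% of all genes did not. Called genes with a change of 2-fold or more numbered 2, Sqstm1 and Pink1, where 10.1% of all genes tested reached that size. Which of the smaller changes were called depends on the scaling. With each library centred on its median, 8 of the 32 were called higher and 12 lower, with 16 calls shared. Calls were lost or gained there, and no called gene of the 32 changed sign. Over all genes 3640 were called higher and 4150 lower in place of 4515 and 3260. The genes are described below in the order in which the proteins act. Each count by step stands beside the shares over all genes tested in KO, of which 38.2% rose and 27.6% fell.

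**Figure D2:**
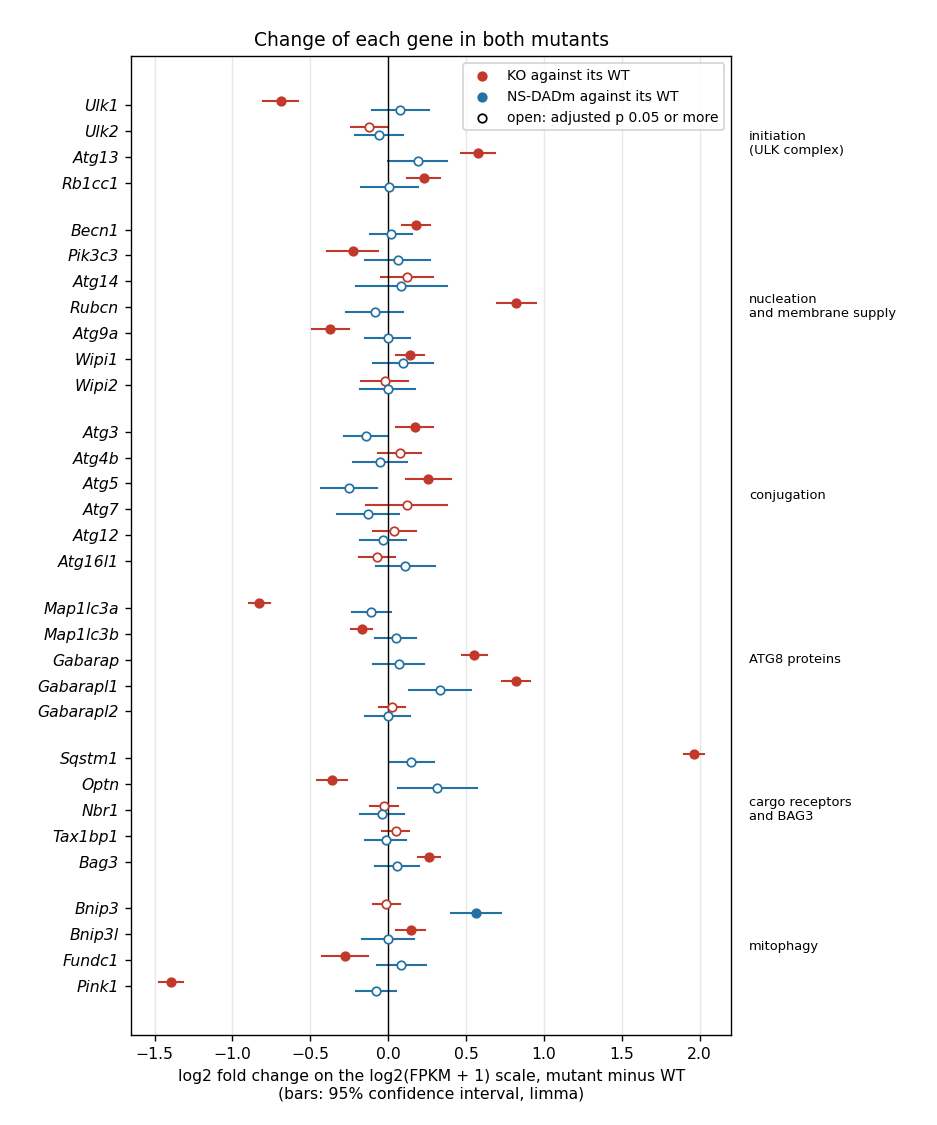
Log2 fold change of 31 of the 32 genes in KO (red) and NS-DADm (blue) against the WT of the same experiment, with 95% confidence intervals from limma; filled points have an adjusted p under 0.05. Filled red points lie on both sides of 0 in most steps, with Sqstm1 at 1.96 and Pink1 at -1.40, and Bnip3 is the only filled blue point.

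Of the 4 genes of the ULK complex, 2 rose and 1 fell in KO, and the summed level of the complex was 86.5 ± 2.32 FPKM in WT and 86.5 ± 0.777 FPKM in KO. Ulk1, the kinase that starts autophagy, was at 27.92, 30.17 and 28.08 FPKM in WT and at 17.01, 17.15 and 18.15 FPKM in KO. The KO values lay well below the WT values without overlap, and the fitted log2 fold change was -0.69 (SE 0.0508, limma adjusted p = 5.64e-07). Atg13, the subunit that links the kinase to its scaffold, went the other way. It was at 19.24, 19.38 and 20.59 FPKM in WT and at 28.60, 30.62 and 30.46 FPKM in KO, a log2 fold change of 0.58 (SE 0.0493, limma adjusted p = 1.93e-06). Every KO library lay above every WT library. Rb1cc1, which encodes the scaffold FIP200, rose from 16.4 ± 0.522 to 19.4 ± 0.181 FPKM (limma adjusted p = 0.00161). Ulk2, the sister kinase of Ulk1, was at 21.6 ± 1.07 FPKM in WT and 19.7 ± 0.667 FPKM in KO and did not pass the test (limma adjusted p = 0.0589).

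In the group of nucleation and membrane supply, 3 of 7 rose and 2 fell. Rubcn, which encodes Rubicon, an inhibitor of the Beclin 1 lipid kinase complex and of autophagosome maturation, had the largest change. Its levels were 9.52, 9.66 and 10.53 FPKM in WT and 18.54, 18.57 and 17.77 FPKM in KO. The groups were far apart, with a 1.85-fold higher mean in KO (log2 fold change 0.82, SE 0.0562, limma adjusted p = 3.04e-07). Atg9a, the scramblase on the vesicles that seed the autophagosome, fell from 25.3 ± 0.764 to 19.4 ± 1.10 FPKM (log2 fold change -0.37, limma adjusted p = 0.000114). Pik3c3, the catalytic subunit VPS34, was at 9.63, 8.13 and 9.73 FPKM in WT and at 7.94, 7.41 and 7.64 FPKM in KO. WT replicate 2 came close to the highest KO library, and the fall (limma adjusted p = 0.0196) was lost without WT replicate 1, WT replicate 3 or KO replicate 2 (limma adjusted p = 0.0675, 0.0686 and 0.064). Becn1, which encodes Beclin 1, rose from 37.0 ± 0.641 to 42.0 ± 0.876 FPKM (limma adjusted p = 0.00227), and Wipi1, a reader of the lipid made by VPS34, from 52.8 ± 1.80 to 58.3 ± 0.677 FPKM (0.00876). Both of these calls were lost when libraries were centred on their medians (limma adjusted p = 0.0647 and 0.258). The other reader, Wipi2, and Atg14, the subunit that directs the complex to autophagosomes, did not pass the test.

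Of the 6 conjugation genes 2 rose and none fell, where 38.2% of all genes tested rose and 27.6% fell. Atg5, which is joined to ATG12 in the complex that places ATG8 proteins on the membrane, was at 11.44, 10.95 and 10.28 FPKM in WT and at 12.52, 12.97 and 14.21 FPKM in KO. The groups did not overlap, and the log2 fold change was 0.26 (SE 0.0644, limma adjusted p = 0.00465). Atg3, the enzyme that hands ATG8 proteins to the lipid, rose from 18.5 ± 0.512 to 21.02 ± 1.17 FPKM (limma adjusted p = 0.0164). This call was lost without WT replicate 1, KO replicate 1 or KO replicate 3 (limma adjusted p = 0.0516, 0.0722 and 0.0552) and with median centring (0.175). The protease Atg4b, the activating enzyme Atg7, Atg12 and Atg16l1 had log2 fold changes between -0.07 and 0.12, with limma adjusted p from 0.241 to 0.582.

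The ATG8 genes changed in opposite directions, and their sum stayed near the same level. The summed level was 1090.3 ± 20.3 FPKM in WT and 1093.2 ± 13.03 FPKM in KO, while 2 of the 5 genes fell and 2 rose. Map1lc3a was at 420.83, 424.13 and 408.82 FPKM in WT and at 233.34, 237.79 and 233.14 FPKM in KO. All KO libraries were far below all WT libraries (log2 fold change -0.83, SE 0.0303, limma adjusted p = 2.4e-09). Map1lc3b, the LC3 gene whose product is the usual marker of autophagosomes, fell from 169.5 ± 1.93 to 150.6 ± 1.80 FPKM (log2 fold change -0.17, limma adjusted p = 0.00062).

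The genes of the GABARAP branch, whose proteins bind the ULK complex more strongly than LC3 does, rose or did not pass the test. Gabarap was at 334.32, 319.90 and 309.55 FPKM in WT and at 461.66, 484.75 and 469.89 FPKM in KO (log2 fold change 0.55, SE 0.0364, limma adjusted p = 2.24e-07). Gabarapl1 was at 64.93, 68.66 and 68.49 FPKM in WT and at 116.77, 124.62 and 117.67 FPKM in KO (log2 fold change 0.82, SE 0.0401, limma adjusted p = 2.24e-08). Neither gene had overlapping groups. Gabarapl2 was at 114.2 ± 0.979 and 116.1 ± 4.82 FPKM (limma adjusted p = 0.628). The 5 genes are paralogs, and reads could be split between copies of similar sequence, so their levels are uncertain to that extent.

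A share within the summed ATG8 level does not depend on how a library was scaled. The share of Map1lc3a was 38.3% ± 0.294 in WT and 21.5% ± 0.0201 in KO, and that of Gabarap was 29.5% ± 0.672 in WT and 43.2% ± 0.611 in KO (SD, n = 3). Gabarap thus took the place of Map1lc3a as the most abundant of the 5 in every KO library. The share of Gabarapl1 was 6.18% ± 0.280 and 10.9% ± 0.262, that of Map1lc3b was 15.5% ± 0.116 and 13.8% ± 0.322, and that of Gabarapl2 was 10.5% ± 0.107 and 10.6% ± 0.533. The groups were fully separate for the first 4 of these genes, with an exact two-sided permutation p = 0.1, the smallest that 3 against 3 libraries allow, and the p for Gabarapl2 was 0.8 by the same exact test. In the NS-DADm experiment the share of Map1lc3a was 43.9% ± 0.943 in WT and 40.6% ± 0.876 in NS-DADm (exact permutation p = 0.1), and that of Gabarapl1 was 6.24% ± 0.753 and 7.83% ± 0.753 (exact permutation p = 0.2). The shares of the other ATG8 genes there had exact permutation p-values of 0.4 to 0.9, and Map1lc3a stayed the most abundant in every library.

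**Figure D3:**
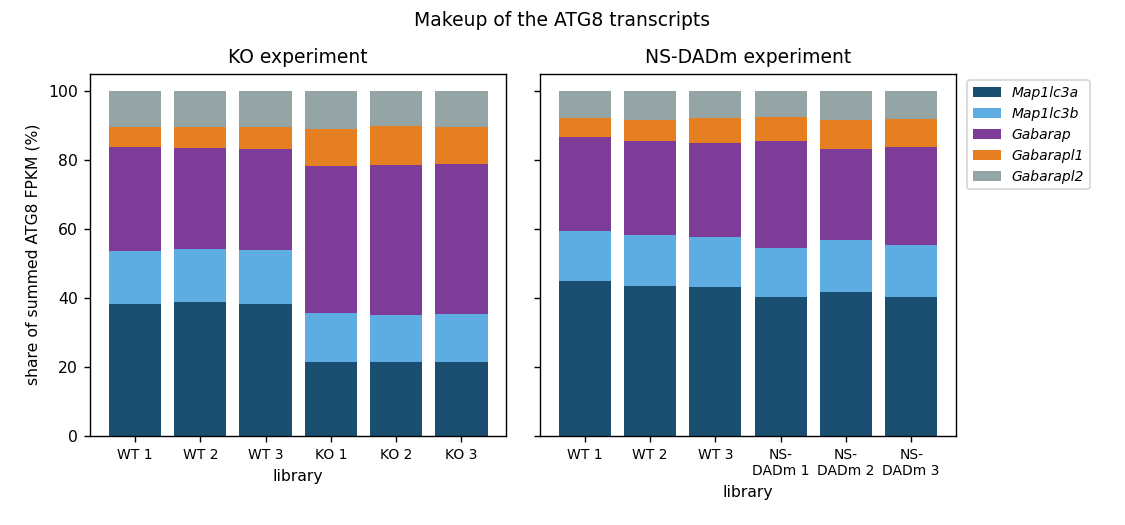
Share of each of the 5 ATG8 genes in their summed FPKM, in percent, as stacked bars for each library of the KO experiment (left) and the NS-DADm experiment (right). Map1lc3a takes 38.3% on average in WT and 21.5% in KO, and Gabarap 29.5% and 43.2%; in the NS-DADm panel the bars of both groups look much alike.

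Among the cargo receptors and BAG3, 2 of 5 rose and 1 fell in KO, and the summed level went from 502.4 ± 7.32 to 1191.2 ± 6.45 FPKM. Nearly all of that rise was Sqstm1, which encodes p62, the receptor for ubiquitinated protein aggregates that is itself degraded by autophagy. Sqstm1 was at 225.89, 233.96 and 234.18 FPKM in WT and at 911.59, 901.73 and 901.28 FPKM in KO. The libraries of each group lay close together and the groups far apart, with a 3.91-fold higher mean in KO (log2 fold change 1.96, SE 0.0294, limma adjusted p = 5.62e-12). The authors' deposited table lists a fold of 3.696 for Sqstm1. Bag3, a cochaperone that directs damaged muscle proteins to p62, rose from 130.0 ± 2.95 to 156.1 ± 1.41 FPKM (log2 fold change 0.26, limma adjusted p = 3.58e-05). Optn, which encodes optineurin, a receptor that also serves in PINK1-dependent mitophagy, was at 54.67, 50.43 and 53.98 FPKM in WT and at 41.30, 41.40 and 40.31 FPKM in KO. The KO values were lower without overlap (log2 fold change -0.36, SE 0.0427, limma adjusted p = 2.43e-05). The receptors Nbr1 and Tax1bp1 had log2 fold changes of -0.03 and 0.05 and did not pass the test.

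Among the 5 mitophagy genes 1 rose and 2 fell in KO, and the summed level went from 620.6 ± 5.76 to 367.8 ± 2.99 FPKM. The fall was mainly that of Pink1, the kinase that accumulates on damaged mitochondria and starts their removal. Pink1 was at 406.82, 417.00 and 391.57 FPKM in WT and at 157.63, 152.71 and 149.66 FPKM in KO. The groups were far apart, with a mean 2.64-fold lower in KO (log2 fold change -1.40, SE 0.0356, limma adjusted p = 1.76e-10). The authors' deposited table lists a signed fold of -2.785 for Pink1. Fundc1, a mitophagy receptor of the outer membrane encoded on the X chromosome, fell from 18.5 ± 1.35 to 15.1 ± 0.987 FPKM (log2 fold change -0.27, limma adjusted p = 0.00393). Bnip3l, the receptor NIX, rose from 34.7 ± 0.837 to 38.5 ± 1.08 FPKM (limma adjusted p = 0.0108), a call that was lost without KO replicate 1 (0.0517) and with median centring (0.233).

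Bnip3, a receptor related to NIX and known as a hypoxia-induced gene, was at 161.73, 153.08 and 164.77 FPKM in WT and at 154.15, 157.76 and 164.05 FPKM in KO. These groups overlapped over nearly their whole ranges, and the log2 fold change was -0.01 with a 95% confidence interval from -0.10 to 0.08 (limma adjusted p = 0.824).

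**Figure D4:**
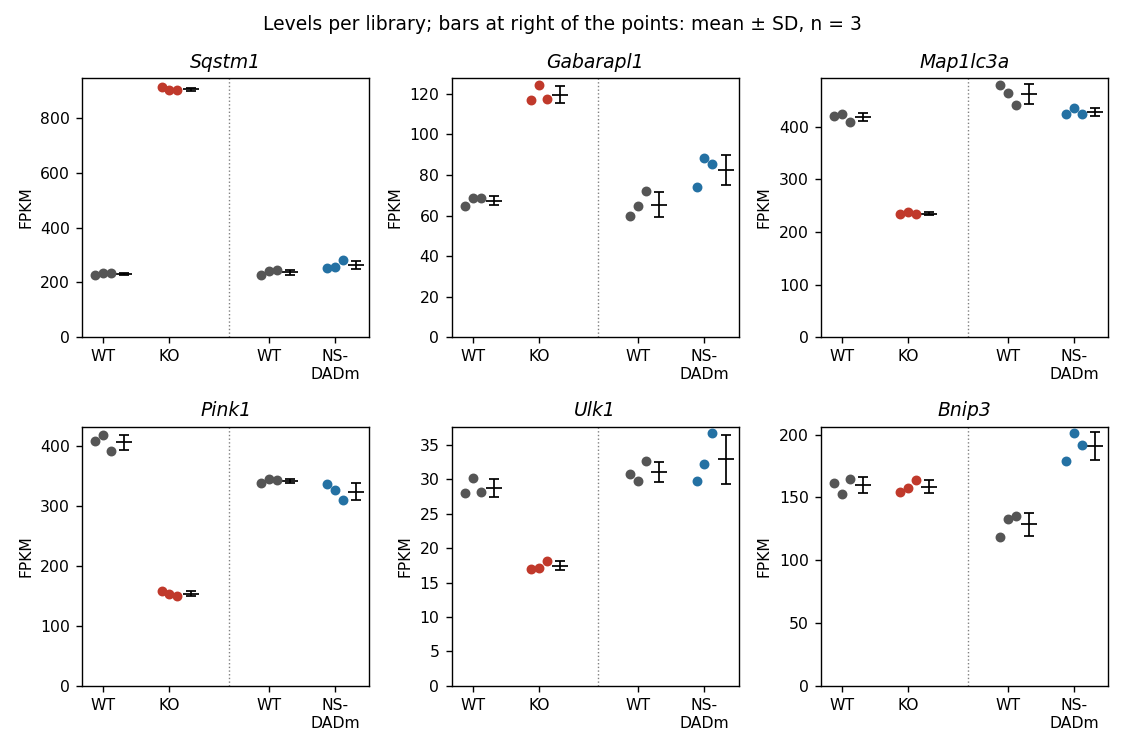
FPKM of 6 genes in every library, from 0, with mean and SD (n = 3) beside the points; WT and KO stand left and WT and NS-DADm right of the dotted line. Sqstm1, Gabarapl1, Map1lc3a, Pink1 and Ulk1 separate KO from its WT, and Bnip3 separates NS-DADm, at 179.0 to 201.5 FPKM, from its WT, at 118.4 to 135.0 FPKM.

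In NS-DADm hearts Bnip3 was the one gene of the 32 that passed the test, which is 1 of 32 where 2.69% of all 11705 genes tested were called (1.26% higher and 1.43% lower). It was at 118.42, 132.55 and 135.04 FPKM in WT and at 179.00, 201.53 and 191.97 FPKM in NS-DADm. Every NS-DADm library lay above every WT library, with a 1.48-fold higher mean (log2 fold change 0.57, SE 0.0717, limma adjusted p = 0.00538). Bnip3 was called in all 13 alternative fits, among them one with log2 Myl7 as a covariate, which was chosen after seeing the data. The part of the uneven atrial RNA in the rise was not tested beyond that fit. The authors' deposited table lists a fold of 1.507 and a q-value of 1.486e-10 for Bnip3.

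For the other genes named here the log2 fold changes in NS-DADm lay between -0.25 and 0.33, with limma adjusted p from 0.0897 to 0.997. The median of the 32 was 0.00, beside -0.02 over all genes. At an unadjusted p under 0.05 there were 7 of the 32, where 18.4% of all genes reached that level, and 7 of the 32 had groups that did not overlap, where 24.2% of all genes did. Gabarapl1 came closest. It was at 59.60, 64.48 and 72.09 FPKM in WT and at 73.96, 88.30 and 85.28 FPKM in NS-DADm, so that the highest WT library lay just under the lowest NS-DADm library (log2 fold change 0.33, 95% confidence interval 0.13 to 0.53, limma adjusted p = 0.0897). In the authors' deposited table its fold is 1.282 with a q-value of 0.01241. Optn was at 34.90, 39.93 and 29.41 FPKM in WT and at 45.86, 45.21 and 38.78 FPKM in NS-DADm, where the groups overlapped (log2 fold change 0.32, limma adjusted p = 0.173).

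The 5 genes with the largest changes in KO (Sqstm1, Pink1, Map1lc3a, Rubcn and Gabarapl1) were not called in NS-DADm. Gabarapl1, given above, had the largest value of the 5 there, at 0.33. Sqstm1 was at 227.06, 240.25 and 243.62 FPKM in WT and at 252.10, 256.92 and 280.44 FPKM in NS-DADm, which are separate groups with a small gap (log2 fold change 0.15, 95% confidence interval 0.01 to 0.29, limma adjusted p = 0.249). Pink1 was at 337.10, 343.53 and 342.53 FPKM in WT and at 336.16, 325.18 and 308.88 FPKM in NS-DADm (log2 fold change -0.08, 95% confidence interval -0.20 to 0.05, limma adjusted p = 0.509). Rubcn had a log2 fold change of -0.09, Ulk1 of 0.08, Map1lc3a of -0.11 and Gabarap of 0.07, and none of these passed the test. Ulk2 lies 0.46 Mb from Ncor1, a corepressor whose domain the NS-DADm line carries mutated, on chromosome 11, and is the only one of the 32 within 5 Mb of Hdac3 or Ncor1. Its log2 fold change in NS-DADm was -0.06 (limma adjusted p = 0.696).

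A difference between the mutants was tested directly, as the log2 fold change in KO minus that in NS-DADm, over all 12 libraries with 4 group means. Of the 32 genes, 8 had a higher and 8 a lower value in KO (28.2% and 17.7% of all genes). Together these are 16 of the 32, where 45.8% of the 11664 genes tested were called. By far the greatest differences were those of Sqstm1, at 1.81 (95% confidence interval 1.67 to 1.96), and of Pink1, at -1.32 (-1.45 to -1.18). Rubcn differed by 0.91 and Gabarapl1 and Gabarap by 0.49 each. Among the lower values were those of Ulk1 at -0.77, of Map1lc3a at -0.72 and of Optn at -0.68. Optn was lower than WT in KO, at -0.36, and had a value above WT in NS-DADm, at 0.32, that did not pass its own test.

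Bnip3 differed by -0.58 (95% confidence interval -0.75 to -0.40, limma adjusted p = 6.48e-05), with its rise in NS-DADm and no call in KO. Atg5 differed by 0.51, Atg13 by 0.39 and Atg3 by 0.31. Atg9a differed by -0.37, Fundc1 by -0.36 and Map1lc3b by -0.22, and Bag3 by 0.20. The call of Bag3 was lost under 6 of 19 alternatives, with limma adjusted p up to 0.269. The tables of the experiments were normalized separately, so each difference is one of changes, not of levels. Becn1, Wipi1, Rb1cc1, Pik3c3 and Bnip3l were called in KO, and their differences from NS-DADm did not pass the test, with limma adjusted p from 0.060 to 0.742.

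Genes around the 32 were described with 8 further lists, by counts and medians of log2 fold changes. In KO, where 38.2% of all genes tested rose and 27.6% fell, 6 of 18 other core autophagy genes rose and 4 fell (median 0.11). Nrbf2, a partner of the lipid kinase complex, rose from 10.1 ± 1.25 to 16.1 ± 0.934 FPKM, and the protease Atg4d fell from 26.3 ± 2.74 to 16.6 ± 0.700 FPKM (limma adjusted p = 5.38e-05 and 1.62e-05). Of 13 genes for fusion with the lysosome 7 rose and 1 fell (median 0.20), among them the SNARE gene Snap29, from 8.48 ± 0.804 to 11.2 ± 1.02 FPKM, and Vps11, a tethering subunit, from 9.10 ± 0.587 to 11.9 ± 0.404 FPKM (limma adjusted p = 0.00223 and 0.000504).

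Downstream of fusion, 12 of 14 lysosomal genes rose in KO and 1 fell, with a median of 0.87 beside 0.06 over all genes. The proton pump subunit Atp6v1h rose from 12.8 ± 0.622 to 29.1 ± 0.803 FPKM (limma adjusted p = 1.37e-08). Macrophages are rich in lysosomal enzymes, and the summed macrophage markers moved with this list, from at most 330.1 to at least 1790.9 FPKM; their part in it was not tested. In NS-DADm 1 of the 14 rose, the cathepsin gene Ctsl, from 40.4 ± 1.51 to 56.5 ± 2.89 FPKM (limma adjusted p = 0.0063).

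Of 18 other genes of mitophagy and selective autophagy 7 rose and 7 fell in KO (median 0.01). Calcoco1, a receptor for autophagy of the endoplasmic reticulum, fell from 64.1 ± 1.98 to 36.5 ± 0.843 FPKM, and Fkbp8, a mitophagy receptor, rose from 68.3 ± 4.66 to 109.1 ± 2.40 FPKM (limma adjusted p = 3.1e-08 and 5.0e-07). Of 21 regulators 7 rose and 7 fell (median 0.04). Bcl2, which holds Beclin 1 inactive, rose from 1.76 ± 0.165 to 6.49 ± 0.403 FPKM, and Deptor, an inhibitor of mTOR, fell from 3.92 ± 0.0208 to 2.06 ± 0.0200 FPKM (limma adjusted p = 5.11e-08 and 6.91e-06). In NS-DADm none of these genes was called by limma, nor any of the 18 core and 13 fusion genes, where 2.69% of all genes were.

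The last lists hold partners of BAG3, targets of NRF2, a factor that p62 frees from its inhibitor KEAP1 and that activates Sqstm1 in turn, and hypoxia targets. Of 10 BAG3 partners, 8 did not depend on KO to pass the filter on low values, and of these 6 rose and 2 fell in KO (median 0.51). Filamin C, Flnc, a client of BAG3, rose from 29.6 ± 1.02 to 116.7 ± 2.66 FPKM (limma adjusted p = 3.88e-11). The other two, the stress-induced HSP70 genes Hspa1a and Hspa1b, went from means of 0.983 and 0.610 FPKM to 5.13 and 6.83 FPKM, and as WT libraries of both were under 1 FPKM they were tested only through KO, which fixes their direction. They are near-identical copies, so reads could be split between them. All 7 tested of 8 NRF2 targets rose (median 1.23), led by Hmox1, heme oxygenase, from 7.55 ± 0.748 to 48.8 ± 1.70 FPKM, and Srxn1, sulfiredoxin, from 11.2 ± 0.977 to 44.4 ± 1.95 FPKM (limma adjusted p = 2.02e-10 and 1.17e-09).

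In NS-DADm, where 1.26% of all genes tested rose, 1 of the 10 BAG3 partners and 2 of the 7 NRF2 targets rose and none fell. Flnc rose from 37.1 ± 1.46 to 55.9 ± 2.25 FPKM (limma adjusted p = 0.00205), the quinone reductase gene Nqo1 from 42.3 ± 4.14 to 81.5 ± 5.91 FPKM (0.000761) and Hmox1 from 8.12 ± 0.390 to 11.5 ± 1.56 FPKM (0.0422). Of 9 hypoxia targets, the class to which Bnip3 belongs, none was called in NS-DADm (limma, median 0.05), where 2.69% of all genes tested were. A list of 9 genes is too short to tell that count from this share. In KO 4 of the 9 rose and 3 fell (median -0.09). The glucose transporter Slc2a1 rose from 6.79 ± 0.287 to 19.0 ± 1.12 FPKM and the prolyl hydroxylase P4ha1 from 17.9 ± 0.545 to 34.5 ± 0.982 FPKM (limma adjusted p = 1.21e-08 and 3.0e-08).

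For the KO comparison 16 of the 32 genes had a q-value under 0.05 in the authors' deposited table, of which limma called 15, and the other was Ulk2. Becn1, Wipi1, Atg3, Atg5 and Bnip3l were called by limma alone. In NS-DADm 2 of the 32 had such a q-value in the authors' deposited table, Bnip3 and Gabarapl1. Exons of 12 of the 32 genes overlap another annotated gene, and the labels do not say whether counting used strand, so their levels could include reads of the partner. For Sqstm1 the overlap covers 17.3% of its exon bases, with Mrnip on the opposite strand, which was at 2.84 ± 0.581 FPKM in WT and 4.53 ± 0.715 FPKM in KO. For Becn1 it covers 43.9%, with Cntd1 at 0.220 ± 0.227 FPKM in WT and 0.257 ± 0.0896 FPKM in KO. For Gabarapl1 it covers 28.3%, for Atg9a 31.8% on the same strand, and for Bnip3 22.3%. For Rubcn it covers 2.3%, with Fyttd1 on the opposite strand. Fyttd1 was at 26.6 ± 1.11 FPKM in WT and 36.3 ± 2.02 FPKM in KO (limma adjusted p = 2.87e-05).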

How the data were processed

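RNA-seq of total RNA from mouse heart was deposited for 12 libraries. The authors deposited FPKM for each gene in every library (per the file headers), in 1 separately normalized table for each experiment. Tools in the submitters' processing notes, where no role is stated, are RSEM 1.2.12, HISAT2 2.0.4, DESeq2 1.4.5 and Bowtie2 2.2.5, with build GRCm38.p6, and per the labels' protocols adapter reads were removed with SOAPnuke 1.5.2. In the table of NS-DADm hearts 1654 to 2212 genes per library had no listed FPKM in the file the authors deposited and were taken as 0, and none of the 32 genes was among them. The authors' deposited tables also hold q-values and a signed fold score, the ratio where it is above 1 and minus its inverse where it is below. Another 3 columns with values of single libraries matched no sample and were left aside. Symbols turned into dates (24 in each table) and, in the KO table, 7 numbers and 2 repeated symbols were left out.

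The 32 genes and the further lists were chosen with earlier results of these data known. Limma 3.58.1 in R 4.3.3 (trend, robust) was run on log2(FPKM + 1), a scale that understates the change of low genes, where a gene reached 1 FPKM in 3 libraries at least. Benjamini-Hochberg adjustment ran over all genes tested, with calls made where the adjusted p was under 0.05. Each mutant was tested against its own WT in 6 libraries. The contrast between the mutants' effects used all 12 libraries and 4 group means. A planned count test could not be used on FPKM. Of each further list the 2 called genes with the largest fold change were named. Some genes, among them 1 of the 32, are counted but not reported here by name. A fold is the ratio of mean FPKM values. ATG8 shares were compared by exact two-sided permutation tests. The code was tested on simulated data. Alternatives changed the pseudocount, the filter, the scaling, the variance model and the libraries used, and added a replicate block or a Myl7 covariate.

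The depth over the listed genes, estimated from the steps in low FPKM values, was 8.3 to 10.7 M fragments in the KO experiment and for NS-DADm and its WT 10.4 to 13.3 M fragments (M, mega), and the labels give an average of 60 M reads. Between 60.6% and 76.1% of the low values used fell within 0.15 of a whole number, so no counts were rebuilt. Positions and promoters are those of RefSeq, and exon overlaps those of GENCODE M 21, on GRCm38.p6.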

Additional observations from a re-analysis of the deposited data

Results flagged for a closer look

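For 16 of the 32 genes the change in KO differed from the change in NS-DADm by the test of the difference itself (limma, adjusted over all genes, where 45.8% of the genes tested were called). Values are the log2 fold change in KO minus that in NS-DADm. Among the initiation genes it was -0.765 for Ulk1 and 0.386 for Atg13. Among those of nucleation and membrane supply it was 0.91 for Rubcn and -0.368 for Atg9a, and in conjugation 0.313 for Atg3 and 0.511 for Atg5. Among the ATG8 genes it was -0.722 for Map1lc3a, -0.219 for Map1lc3b, 0.487 for Gabarap and 0.489 for Gabarapl1. Among the receptors it was 1.81 for Sqstm1, -0.678 for Optn and 0.203 for Bag3, and among the mitophagy genes -0.576 for Bnip3, -0.36 for Fundc1 and -1.32 for Pink1. Ddx3y was at 0 in the WT and at 21.43 FPKM or more in the KO libraries, and at 0.06 FPKM or less in all libraries of the NS-DADm experiment. The experiments thus differ in more than the genotype, and these causes cannot be told apart.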

How the results depend on the processing

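Of the genes called, 15 of 20 in KO, 1 of 1 in NS-DADm and 15 of 16 in the difference were called under every one of 12, 13 and 19 alternatives, and no called gene changed sign. Median centring shifted the median of all genes by -0.0866 in KO, by 0.0145 in NS-DADm and by -0.103 in the difference. Relative to that median Becn1, Wipi1, Atg3 and Bnip3l lost their calls in KO, and Ulk2, Atg16l1, Nbr1 and Bnip3 were called lower; all other KO calls kept their direction. With 1 library left out, the log2 fold change ran from -0.0414 to 0.0114 for Bnip3 and from -0.0115 to 0.0442 for Gabarapl2 in KO, and from -0.00198 to 0.144 for Ulk1 in NS-DADm, and none of these was called higher or lower there. Median centring gave -0.0647 for Gabarapl2 and -0.0384 for Tax1bp1 in KO. Over all 1402 alternative values of the 32 genes the sign changed in 63, none of them called in the test as reported or in the alternative, and all at most 0.089 from 0.

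Over all genes, NS-DADm gave 315 calls, 164 with no filter on low values and 198 with log2 Myl7 as a covariate, chosen after seeing the data. Leaving out 1 library gave 84 to 248, with 99 without WT replicate 1, 84 without WT replicate 2 and 148 without NS-DADm replicate 1. The Myl7 covariate gave 2 of the 32 genes higher, Bnip3 and Optn (limma adjusted p = 0.0324). Leaving out 1 library gave 6814 to 7352 calls in KO and 4639 to 5312 in the difference.

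The labels state no pairing of samples by replicate number. In the KO experiment same-numbered libraries correlated in their deviations at -0.0559, -0.0247 and 0.00204, and no library correlated best with its own number. In the NS-DADm experiment these values were 0.00662, 0.376 and 0.435. There replicates 2 and 3 correlated best with their own number and replicate 1 did not. Myl7 was lowest of its group in both libraries numbered 2, at 9.77 FPKM in WT and 84.3 FPKM in NS-DADm. It was highest in both numbered 3, at 795.5 and 804.5 FPKM. A pairing of samples in that experiment thus cannot be told apart from a like content of atrial RNA. The test as reported used no pairing. With the replicate block NS-DADm gave 496 calls and 3 of the 32 genes higher, Bnip3, Gabarapl1 and Optn (limma adjusted p = 0.0306 and 0.0445 for the last pair). In KO the block gave 12 of the 32 higher and 8 lower, and in the difference 9 and 8.

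Shares of the ATG8 sum taken without Map1lc3a differed, mutant minus WT, by -7.67 percentage points for Map1lc3b, 7.22 for Gabarap, 3.92 for Gabarapl1 and -3.47 for Gabarapl2 in KO, and by -0.64 for Map1lc3b and -0.852 for Gabarapl2 in NS-DADm, since the rest then has to sum to the whole. The n of 3 libraries per group limits the precision of every value, and FPKM carry no exact depth.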
